A study of Homo sapiens with 4 samples.

Results

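The activator protein 1 (AP-1) transcription factors were followed in BEAS-2B cells, an immortalised line of human bronchial epithelial cells. The set was given by symbol as FOS, FOSB, FOSL1, FOSL2, JUN, JUNB, JUND, ATF3, BATF3 and MAFF, and all 10 were found among the 24424 gene symbols counted. RNA was sequenced from 4 libraries, with 1 library for each condition. Control cells received no treatment, LPS cells received lipopolysaccharide for 2 hr, and WT PDZ+LPS and mut PDZ+LPS cells received a peptide for 24 hr and then LPS for 2 hr. The peptides carry a PDZ sequence of the tight junction protein ZO-1 with a cell-penetrating tag, and the mutant has a pair of glycines replaced by alanines. All 4 libraries came from the same wild-type line, and no library was made from cells given a peptide without LPS.

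AP-1 is not one protein but a dimer of basic leucine zipper proteins. JUN proteins pair with each other or with FOS proteins, whereas FOS proteins need a JUN partner, and the dimers bind short palindromic DNA elements. ATF3 and BATF3 join the same network, and MAFF is a small Maf protein that has the zipper but no activation domain. Several of these genes are immediate early genes, which mitogen-activated protein kinases switch on within minutes of a stimulus and which then fall again. In airway epithelium AP-1 is known for its part, beside NF-kB, in the transcription of cytokines, proteases and growth factors.

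Total counts lay between 19682929 in mut PDZ+LPS and 25155647 in LPS. Where 4 counts or levels are listed in a row below, they stand in the order Control, LPS, WT PDZ+LPS, mut PDZ+LPS. Counts were divided by a size factor for each library to give normalized counts, and log2 fold changes were taken after adding 1 to each. With 1 library per condition there was no replicate spread, so no test between conditions could be made. The 95% intervals given are exact binomial (Clopper-Pearson) counting intervals between 2 libraries and cover counting error only. A gene was called when it differed at least 2-fold and had at least 16 normalized counts in at least one of the 2 libraries. The keratins KRT7, KRT8 and KRT18, which mark simple epithelium, had between 12657 and 48326 counts in every library, whereas EPCAM had 37 to 51. The other epithelial markers listed were also far lower than these 3 keratins. KRT5 had 1166 to 1408 counts, CDH1 308 to 634, KRT19 87 to 216, TP63 46 to 105 and KRT14 37 to 42. The leukocyte marker PTPRC and the fibroblast collagen COL3A1 had 0 counts in all 4 libraries, while other markers of such cells were counted in every library. CD14, a receptor component for LPS that is also used as a monocyte marker, had 362 to 507 counts, the macrophage marker CD68 304 to 358, COL1A1 331 to 449 and PDGFRB 67 to 129, and their part in the results was not tested.

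The mut PDZ+LPS library stood apart by transcript length and by GC content. Across 11751 genes, which are not independent replicates, Spearman's rho between the log2 fold change and transcript length was -0.60 for mut PDZ+LPS/LPS but 0.074 for WT PDZ+LPS/LPS. With GC content, rho was 0.41 for mut PDZ+LPS/LPS and -0.089 for WT PDZ+LPS/LPS. Log2 fold changes with mut PDZ are therefore also given corrected for both transcript length and GC content, while levels and shares are not corrected. The correction left a rho of 0.092 in mut PDZ+LPS/LPS.

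Short stretches of promoter are shown first, because AP-1 genes are known to be switched on through elements that AP-1 and its relatives themselves bind. RefSeq start sites (GRCh38.p14) gave a window from 250 bases before to 50 bases after the start for 8 of the 10 genes, and FOSL1 and BATF3 had none in the table. The windows of 7 genes held TGACGT or TGACATCA before the start. Each line gives 30 bases on the gene's strand, 5′ to 3′, with the 8 bases of the element in capitals.
FOS: ggttgagcccgTGACGTTTacactcattca
FOSB: caaggggcgggTGACGTAAgcaggggggcg
FOSL2: gagtctggggtTGACGTGAgtgaatccaca
MAFF: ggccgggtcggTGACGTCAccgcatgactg
JUND: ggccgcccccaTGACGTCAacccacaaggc
JUN: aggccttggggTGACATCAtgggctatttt
ATF3: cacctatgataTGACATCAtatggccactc

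These lay at chr14:75278753-75278782 for FOS, chr19:45467925-45467954 for FOSB, chr2:28392781-28392810 for FOSL2 and chr22:38201929-38201958 for MAFF, all on the plus strand. JUND lay at chr19:18281804-18281833 and JUN at chr1:58784096-58784125 on the minus strand, and ATF3 at chr1:212565273-212565302 on the plus strand. Counted back from the start site, the element began at -54 in MAFF, -60 in FOSB, -64 in FOS, -66 in FOSL2 and -67 in JUN. It began at -123 in ATF3 and -200 in JUND. Only elements read on the gene's own strand were taken here. JUND also had TGACGT on the other strand at -87 to -82, nearer the start. TGACGT, searched on both strands, was in 5 of the 8 genes' windows and in 7.98% of all 35116 windows. TGACATCA was in 2 of the 8 and 2.61% of all. The full palindrome TGACGTCA (the CRE), which contains TGACGT, was in JUND and MAFF and in 1.85% of all windows, and TGACTCA (the TRE, the classical AP-1 element) was in FOSL2 alone, 5 bases after the start, and in 4.95% of all. No CArG box, the element of serum response factor, was found in these windows (1.29% of all), and the kappa-B motif was in 1 of the MAFF windows (11.3% of all). Elements more than 250 bases before the start lay outside the windows and were not searched, so their absence is not shown. Members were counted by gene, with 10 windows for the 8 genes, whereas the shares of all are by window. The motifs were chosen after the windows had been seen, so the shares of the members test nothing. Such matches describe letters and do not show binding.

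JUND, whose count was the highest of the JUN genes in each library given LPS, is shown with all 250 bases before its start (chr19:18281623-18281872, minus strand). The CRE and a second TGACGT, read on the other strand, are in capitals.
JUND: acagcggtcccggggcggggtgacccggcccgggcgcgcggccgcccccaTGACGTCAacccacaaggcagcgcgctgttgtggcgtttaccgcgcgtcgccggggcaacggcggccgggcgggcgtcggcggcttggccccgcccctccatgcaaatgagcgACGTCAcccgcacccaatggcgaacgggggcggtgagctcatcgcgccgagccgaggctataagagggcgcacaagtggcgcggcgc

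In LPS/Control, 7 of the 10 AP-1 genes were called higher and 0 lower, where 3.46% of the 13277 genes that passed the expression rule were called higher and 1.41% lower. The genes called were FOSB, MAFF, FOSL2, JUN, ATF3, JUND and FOSL1. FOS, JUNB and BATF3 were not called. The median log2 fold change of the 10 genes was 1.31, against -0.0023 over all genes that passed the rule. FOSB, MAFF and FOSL2 had the 89th, 96th and 110th highest log2 fold changes of all these genes. FOSB, with 9.57 normalized counts in Control, passed the rule only through the LPS library, so its call and rank test nothing. BATF3, with 12.2 in Control, also passed only through LPS. In bulk RNA, more RNA per cell and more cells with the RNA cannot be told apart.

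Among the FOS genes, the 2 members without a strong activation domain carried most of the counts. FOSL2, which encodes FRA2, had 1584, 9385, 7998 and 5060 counts. Its log2 fold change in LPS/Control was 2.68 (2.60 to 2.76), and all 3 LPS libraries lay far above Control. FOSL1, which encodes FRA1, had 1094, 2470, 2498 and 3137 counts. The log2 fold change of FOSL1 in LPS/Control was 1.29 (1.18 to 1.39), and its highest count was in mut PDZ+LPS, the library with the smallest total.

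FOS and FOSB, the strong activators of the family, were far lower in count. FOS had 230, 178, 157 and 182 counts. FOS was thus not higher after 2 hr of LPS, and at -0.26 (-0.55 to 0.031) on the log2 scale no difference was detectable at this depth. FOSB had 11, 83, 39 and 53 counts, so that Control lay well below the others. FOSB stood at 2.90 (2.11 to 4.08) on the log2 scale with LPS, or at 2.51 with a pseudocount of 5, with the widest interval of the 7 genes called.

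The JUN genes, whose products every FOS protein needs as partners, split in the same comparison. JUN, the strongest activator of the 3, had 821, 2086, 2031 and 2539 counts. Its log2 fold change in LPS/Control was 1.46 (1.34 to 1.58). JUND, often described as the constitutive member, had 1089, 2474, 2320 and 3681 counts and was at 1.30 (1.19 to 1.40) with LPS. JUNB, which can restrain JUN, had 1172, 1307, 1259 and 1730 counts and stayed under 2-fold at 0.27 (0.15 to 0.38).

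The partners outside the FOS and JUN families differed widely in level. MAFF had 319, 2117, 1769 and 1955 counts, and its log2 fold change with LPS was 2.84 (2.67 to 3.02). ATF3, a stress-induced factor that often acts as a repressor, had 91, 213, 184 and 166 counts and was at 1.33 (0.98 to 1.71). BATF3, best known from dendritic cells, had only 14, 19, 9 and 36 counts. The difference of BATF3 in LPS/Control, 0.52 (-0.52 to 1.66), was not detectable at this depth.

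**Figure D1:**
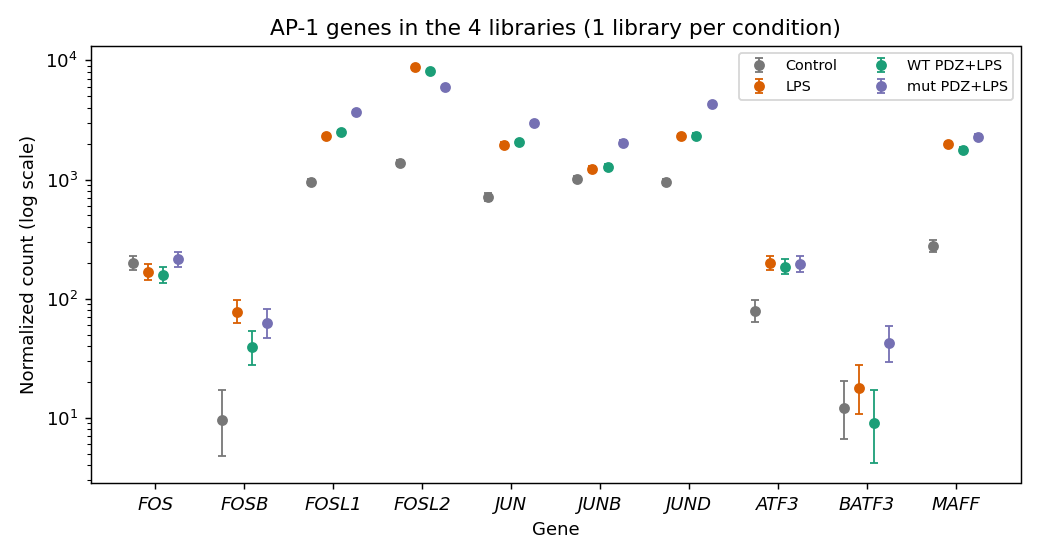
Normalized counts (log scale) of the 10 AP-1 genes in the 4 libraries, with 1 point per library and bars for the exact binomial 95% counting interval. FOSL2 is highest in LPS at 8828 normalized counts, FOS lies between 159 and 214 in every library, and BATF3 is near the limit of counting.

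The same 7 genes were called higher in WT PDZ+LPS/Control, with 0 lower, where 3.28% of genes were called higher and 1.42% lower. In mut PDZ+LPS/Control, 8 were called higher and 0 lower, against 5.13% and 2.96% of all genes, and BATF3 was the added member. After the correction the log2 fold changes of these 8 genes in mut PDZ+LPS/Control lay between 1.12 (BATF3) and 2.88 (MAFF). These comparisons share the Control library with LPS/Control. BATF3 had 36 counts in mut PDZ+LPS and did not pass the expression rule in WT PDZ+LPS/Control, so 9 of the 10 members were counted there. In mut PDZ+LPS/Control BATF3 passed only through the mutant library, with 12.2 normalized counts in Control. FOSB, with 9.57 in Control, passed only through the peptide library in both comparisons. JUNB lay just under the limit in mut PDZ+LPS/Control, at a log2 fold change of 0.99 (0.89 to 1.10), or 0.54 once length and GC content were accounted for.

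**Figure D2:**
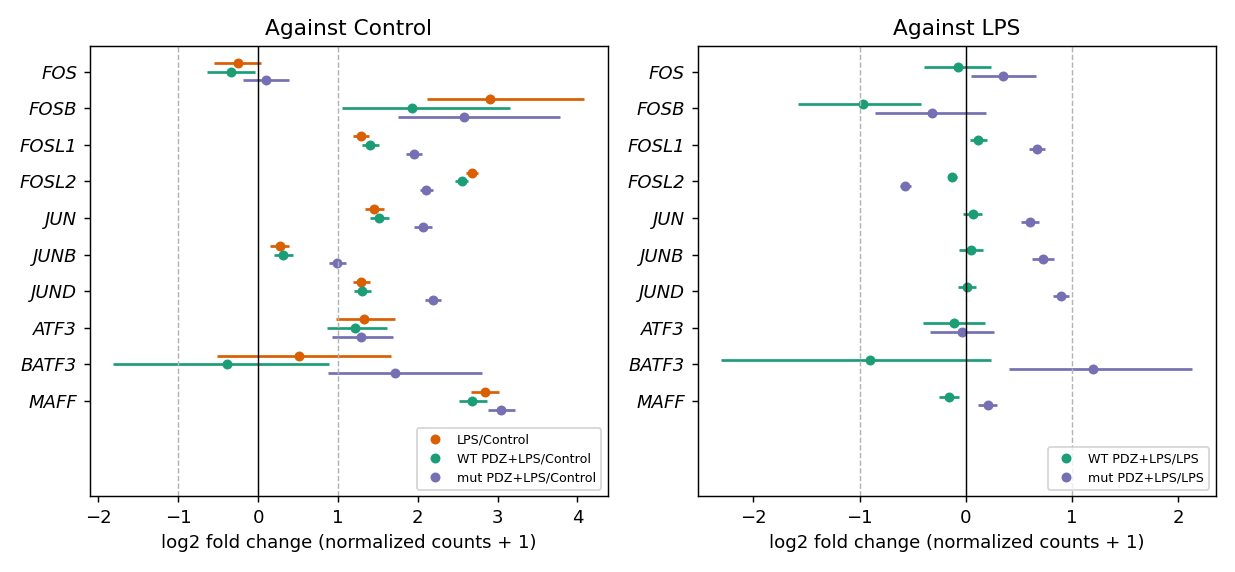
Log2 fold changes of the 10 genes against Control (left) and against LPS (right), with bars for the 95% counting interval and dashed lines at 2-fold. Against Control, FOSL2 stands at 2.68 in LPS and 2.11 in mut PDZ+LPS, while against LPS all points but that of BATF3 with the mutant peptide lie inside 2-fold.

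Levels were compared between genes as normalized counts per kb, taking the longest coding transcript of each gene from GENCODE 29. In Control, FOSL1 (570), JUNB (560) and JUND (509) led, and the intervals of all 3 overlapped. FOSL2 (206) and JUN (202) followed without a difference beyond counting error, ahead of MAFF (111), FOS (92.8), ATF3 (39.0), BATF3 (12.4) and FOSB (2.54). In LPS the leaders were FOSL1 (1392), FOSL2 (1316) and JUND (1249), and the intervals overlapped between FOSL1 and FOSL2 and between FOSL2 and JUND, but not between FOSL1 and JUND. MAFF moved to the fourth place at 800 per kb, above JUNB at 676. With the mutant peptide, JUND (2322) and FOSL1 (2208) led with overlapping intervals, and JUNB (1117) came next. MAFF (923) and FOSL2 (886) followed with overlapping intervals. These levels were not corrected for the length and GC trends of the mut PDZ+LPS library, which the intervals do not cover.

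The make-up of each family was then described as the share of its summed counts, which does not depend on the size factors. FOS went from 7.88% (95% exact binomial interval 6.93 to 8.92%) of FOS family counts in Control to 1.47% (1.26 to 1.70%) in LPS, and was 1.47% (1.25 to 1.71%) with the wild-type and 2.16% (1.86 to 2.49%) with the mutant peptide. The FOSL2 share went from 54.3% (52.4 to 56.1%) in Control to 77.5% (76.7 to 78.2%) in LPS. It was 74.8% (74.0 to 75.6%) with the wild-type and 60.0% (59.0 to 61.1%) with the mutant peptide. Per kb of transcript, FOSL1 was the larger part in every library, with 65.5% against 23.6% for FOSL2 in Control and 49.6% against 46.9% in LPS. Per kb of coding length the order of the pair turned, with FOSL2 ahead of FOSL1 in Control and 74.5% against 23.6% in LPS. Which of the pair was more abundant therefore depended on the length used, while the FOSL2 share was higher in LPS than in Control on all 3 scales.

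Within the JUN family, JUNB went from 38.0% (36.3 to 39.8%) of counts in Control to 22.3% (21.2 to 23.4%) in LPS, and was 22.4% (21.4 to 23.6%) with the wild-type and 21.8% (20.9 to 22.7%) with the mutant peptide. JUN went from 26.6% (25.1 to 28.2%) in Control to 35.6% (34.3 to 36.8%) in LPS, and JUND from 35.3% (33.6 to 37.1%) to 42.2% (40.9 to 43.4%). The summed FOS family per kb was 0.685, 1.13, 1.10 and 0.750 times the JUN family. Per kb of coding length the ratios were 1.06, 2.25, 2.08 and 1.19, so which family was the larger in Control and with the mutant peptide depended on the length used. The FOS family sum per kb of transcript was 2806 in LPS and 3210 with the mutant peptide, and the JUN family sum was 2479 and 4281. These sums and shares were not corrected for the length and GC trends of the mut PDZ+LPS library.

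**Figure D3:**
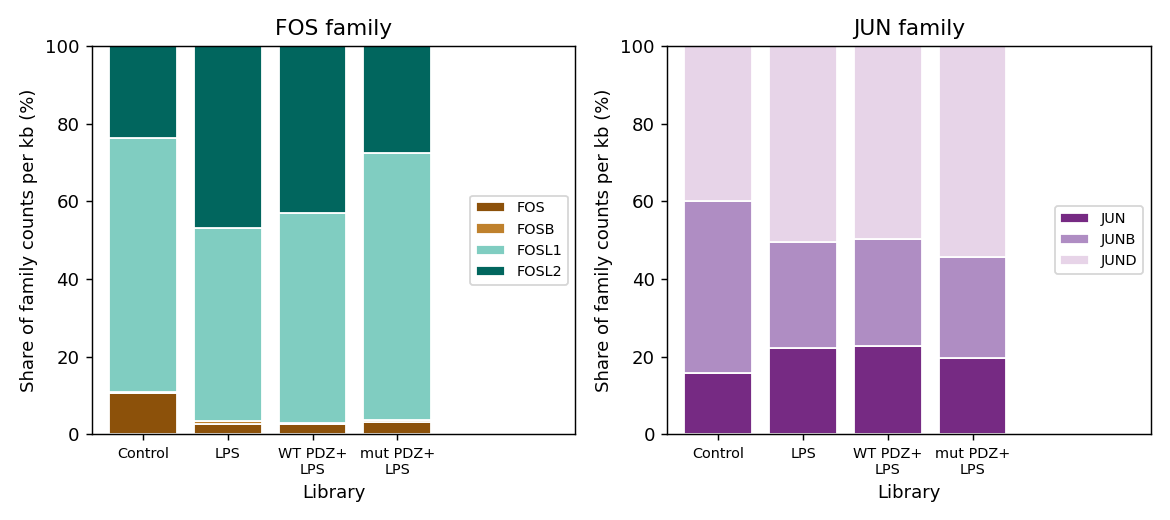
Share of each gene in the summed counts per kb of transcript of the FOS family (left) and the JUN family (right), with 1 stacked bar per library. FOSL2 makes up 23.6% of the FOS family in Control and 46.9% in LPS, and JUNB makes up 44.1% of the JUN family in Control and 27.2% in LPS.

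With the wild-type peptide before LPS, log2 fold changes of the AP-1 genes against LPS alone ran from -0.97 for FOSB to 0.12 for FOSL1. In WT PDZ+LPS/LPS, 0 of the 10 were called in either direction, where 0.635% of all genes were called higher and 0.733% lower, so a count of 0 says nothing particular about these genes. At a threshold of 1.5-fold, 2 were lower, and the share of all genes was not taken there. The median log2 fold change of the 10 genes was -0.093, against 0.0076 over all genes that passed the rule. FOSB came nearest to the limit, with 78.1 normalized counts in LPS and 39.4 in WT PDZ+LPS, a log2 fold change of -0.97 (-1.58 to -0.42). This lay below the middle 95% of all genes, which ran from -0.55 to 0.53, but it rests on 83 and 39 counts.

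FOSL2 and MAFF were slightly lower with the wild-type peptide, by more than counting error. FOSL2 was at -0.13 (-0.17 to -0.085) and MAFF at -0.16 (-0.25 to -0.065). FOSL1 went the other way at 0.12 (0.038 to 0.20). For JUN, at 0.064 (-0.025 to 0.15), JUNB, at 0.048 (-0.065 to 0.16), and JUND, at 0.0095 (-0.073 to 0.092), no difference was detectable at this depth. The same held for FOS at -0.078 (-0.40 to 0.24), ATF3 at -0.11 (-0.40 to 0.18) and BATF3 at -0.90 (-2.30 to 0.24). The intervals leave out a 2-fold difference for all of these but BATF3, as far as counting error goes. How far such small values lie from the spread between cultures was not tested.

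With the mutant peptide before LPS, most AP-1 genes had higher values than in LPS alone. In mut PDZ+LPS/LPS, 1 of the 10 (BATF3) was called higher and 0 lower, where 2.05% of all genes were called higher and 1.9% lower. The median of the 10 genes was 0.48, against -0.017 over all genes, and 0.23 after the correction. BATF3, with 36 counts against 19, was at 1.20 (0.40 to 2.13), or 0.56 after the correction, so that 0 members were called. After the correction 0.733% of genes were called higher and 0.691% lower.

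FOSL2, with the longest transcript, had the lowest value, and JUND, JUNB and FOSL1, with short ones, had higher values, while ATF3 (2033 nt) was near 0. JUND (1863 nt) was at 0.89 (0.82 to 0.97), JUNB (1820 nt) at 0.72 (0.62 to 0.83) and FOSL1 (1669 nt) at 0.67 (0.59 to 0.74). After the correction these values were 0.28, 0.24 and 0.29. FOSL2 was at -0.57 (-0.62 to -0.52), or -0.22 after the correction. JUN (3540 nt) did not follow this order, with 1962 normalized counts in LPS and 2983 in mut PDZ+LPS. The log2 fold change of JUN was 0.60 (0.52 to 0.69) and 0.64 after the correction. JUND (69.7% GC) and JUNB (64.9% GC) were also the members richest in GC. The correction took out trends over both length and GC content, and the part of each in these values was not tested.

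Of the remaining members in mut PDZ+LPS/LPS, FOS was at 0.35 (0.047 to 0.66) and MAFF at 0.21 (0.12 to 0.30). After the correction they were at 0.23 and 0.0074. FOSB, at -0.32 (-0.85 to 0.19), and ATF3, at -0.039 (-0.34 to 0.26), had no difference detectable at this depth, and their corrected values were -0.28 and -0.17.

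**Figure D4:**
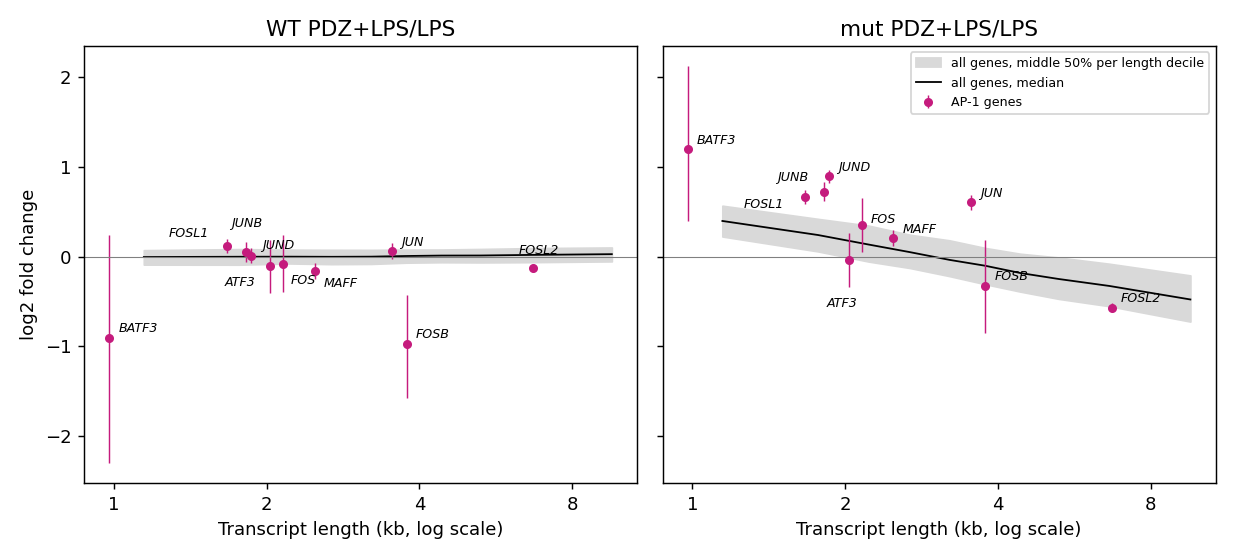
Log2 fold change of WT PDZ+LPS/LPS (left) and mut PDZ+LPS/LPS (right) against the length of the longest protein-coding transcript (kb, log scale). The line and grey band are the median and the middle 50% of all genes in each length decile, and the points with bars are the AP-1 genes with their 95% counting intervals. On the right the median goes from 0.40 in the shortest decile to -0.48 in the longest. JUN, JUND, JUNB and FOSL1 lie above the band, and BATF3, shorter than the first decile's median, lies above the band's start. FOSL2, FOSB and ATF3 lie a little below the band, and FOS and MAFF lie within it.

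The peptides, given for the same time before the same time of LPS, were also set against each other directly. Between the peptides, BATF3 was the only member called, with 36 against 9 counts, and 0 were called lower, where 2.12% of all genes were called higher and 2.14% lower. Its log2 fold change was 2.10 (1.14 to 3.46), or 1.45 after the correction, after which 0.733% of genes were called higher and 0.725% lower. BATF3 passed the rule here only through the mutant library, with 9.09 normalized counts in WT PDZ+LPS. JUND was at 0.88 (0.81 to 0.96), JUNB at 0.68 (0.57 to 0.78), FOSL1 at 0.55 (0.47 to 0.62) and JUN at 0.54 (0.46 to 0.63). After the correction these were 0.28, 0.19, 0.15 and 0.55, and JUN had the largest of these 4 corrected values. FOSB was at 0.65 (0.037 to 1.30), FOS at 0.43 (0.12 to 0.75) and MAFF at 0.36 (0.27 to 0.46), or 0.67, 0.29 and 0.15 after the correction. FOSL2 was lower at -0.44 (-0.49 to -0.39), but was at -0.083 after the correction. For ATF3 no difference was detectable, with an interval of -0.24 to 0.38 and a corrected value of -0.071. The labels give no peptide dose, and with 1 library each the difference between the peptides has no replicate check.

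The rest of the basic leucine zipper network was described with a list of 20 further partners. In LPS/Control, 15 passed the expression rule, 2 were called higher and 1 lower, and the median was 0.17, beside 3.46% and 1.41% of all genes. CREB5, a relative of ATF2, went from 6 counts in Control to 35 in LPS, and BACH1, a small Maf partner that represses antioxidant genes, from 974 to 2046. Their log2 fold changes were 2.45 (1.39 to 4.20) and 1.18 (1.07 to 1.29). CREB5 passed the rule only through the LPS library, with 5.22 normalized counts in Control. BATF2 was lower, from 70 to 19 counts, at -1.71 (-2.58 to -1.02), and BATF itself had 0 counts in all 4 libraries. BATF2 was called higher in mut PDZ+LPS/LPS (1.16, 0.36 to 2.09), with 0.92 after the correction. There 1 of 15 was called higher and 0 lower, beside 2.05% and 1.9% of all genes, and 0 were called after the correction. In WT PDZ+LPS/LPS no gene of the list was called, where 0.635% of all genes were called higher and 0.733% lower.

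Upstream of AP-1, 33 of 34 listed kinases and activators passed the rule. Their median in LPS/Control was 0.12, with 2 called higher and 0 lower, a share near the 3.46% of all genes called higher. MAP3K8 (TPL2), which couples LPS receptors to the ERK pathway, had 387, 3418, 2700 and 2624 counts. MAP3K8 was at 3.25 (3.10 to 3.41) on the log2 scale in LPS/Control, and at -0.24 (-0.31 to -0.17) when the wild-type peptide was set against LPS. MAP2K3, a kinase that activates p38, had 1318, 4347, 3717 and 3592 counts and was at 1.83 (1.74 to 1.92) in LPS/Control. BRAF was called lower with the mutant peptide, at -1.03 (-1.37 to -0.72) against LPS and -1.15 (-1.48 to -0.83) against the wild-type peptide, and after the correction these were -0.51 and -0.57. In each comparison 1 of 33 was called lower and 0 higher, beside 1.9% and 2.14% of all genes called lower. After the correction 0 of the list were called.

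Of 30 textbook AP-1 targets, several of which NF-kB also drives, 20 passed the rule in LPS/Control. Of these, 11 were called higher and 0 lower, with a median of 1.21, beside the same 3.46% and 1.41% of all genes. This list, like the others, was chosen with earlier results of these data known, so its share tests nothing. MMP3 and SERPINB2 passed only through the LPS library, with 0.870 and 1.74 normalized counts in Control. Targets too low to pass are in neither the count nor the median. MMP3 (stromelysin 1), whose promoter is a classical AP-1 target, had 1, 533, 255 and 354 counts. Its log2 fold change in LPS/Control was 8.07, with a counting interval of 6.69 to 14.48. In WT PDZ+LPS/LPS, MMP3 was at -0.96 (-1.18 to -0.74), just inside 2-fold. SERPINB2, an inhibitor of plasminogen activators, had 2, 216, 291 and 265 counts and stood at 0.53 (0.27 to 0.79) in WT PDZ+LPS/LPS, so these 2 targets lay on opposite sides of LPS. IL6 and CXCL8 were both at 4.84 in LPS/Control.

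Other targets were at or near 0. PTGS2 (COX-2) had 0 counts in Control and at most 2 elsewhere, MMP1 had at most 7, and SPRR1A, SPRR1B and SPRR2A, squamous differentiation genes, had 0 in all 4 libraries. In WT PDZ+LPS/LPS, 0 targets were called in either direction, with a median of -0.12. Of all genes, 0.635% were called higher and 0.733% lower there, so a count of 0 says nothing particular about the targets. IL11, too low for the correction, was called higher in mut PDZ+LPS/LPS with 18 counts against 4 (2.22, 0.89 to 4.51), and ITGA2 was called lower in mut PDZ+LPS/WT PDZ+LPS (-1.17, or -0.67 after the correction).

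The early genes most like AP-1, a list of 10 from the EGR, NR4A and IER families, are given beside it. In LPS/Control, 8 passed the rule, 5 were called higher and 0 lower, with a median of 1.32, beside these same shares of all genes. NR4A2 was highest at 3.52 (2.87 to 4.45). NR4A2 and EGR3 passed the rule only through the LPS library, with 13.9 and 4.35 normalized counts in Control. EGR1, like FOS, was not higher, with 4511 counts in Control and 2167 in LPS (-0.95, -1.02 to -0.87) and was named after its value was seen. No difference between this list and the AP-1 genes was tested.

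For each of the 7 members called in LPS/Control, the closest of 13062 other genes were found by the Euclidean distance over the 3 log2 fold changes against Control, that is, over 4 libraries. The closest pattern to FOSL2 was that of ITGB8 at a distance of 0.062, with 1575, 9011, 7808 and 5113 counts. NFKBID was closest to JUN (0.089), CFLAR to ATF3 (0.086), EFNA1 to MAFF (0.13) and GBP2 to FOSB (0.37), followed for FOSB by PLAU at 0.37. SAA2-SAA4, a read-through symbol, was closest to JUND (0.077), and LOC100133331, with 7 to 22 counts, to FOSL1 (0.14). FOSB had the most distant neighbour of the 7.

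Overlapping genes could have shared reads with some members, since the strand setting of the counting is not given in the sources used here. ERCC1 overlaps FOSB on the other strand and had 2436 to 3056 counts, far above FOSB, but its log2 fold change in LPS/Control was -0.090. HOOK2 overlaps JUNB and PLA2G6 overlaps MAFF on the other strand, with -0.061 and 0.30 in LPS/Control. FLJ31356, opposite to FOSL2, had at most 2 counts. AC104695.3 overlaps FOSL2 on the same strand in GENCODE 29 and is not among the counted symbols, so reads from it could be counted as FOSL2 under any strand setting. JUN, JUNB and JUND have 1 exon each, so their reads cannot be told from genomic DNA by splicing.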

How the data were processed

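RNA was poly(A)-selected and sequenced as paired ends with a directional kit. Trimming of adapters and poor bases and mapping with TopHat to hg19 are named in the submitters' processing notes and methods, and the values deposited by the authors are unnormalized counts, 1 per symbol and library. The counting tool, annotation and strand setting are not given in the sources used here. The study's methods name FPKM and geometric normalization, but the deposited values are whole counts with a different total per library.

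Size factors were geometric median-of-ratios values (DESeq2 1.42.0, R 4.3.3), 1.15 for Control, 1.06 for LPS, 0.990 for WT PDZ+LPS and 0.851 for mut PDZ+LPS. Log2 fold changes used a pseudocount of 1, and no test across conditions was possible. For the corrected values, lowess curves (span 0.3) over log transcript length and then GC content were subtracted. Of 13072 genes averaging 16 or more normalized counts, 11751 had a GENCODE 29 transcript. As alternatives, scaling by upper quartile, by total count or by TMM (edgeR 4.0.16) was tried, as were a pseudocount of 5 and other expression rules and fold thresholds. Members, lists, rules and alternatives were chosen with earlier results of these data known, and the promoter motifs after the windows had been seen. All 10 members were named. From the other lists up to 4 genes called in LPS/Control by size, and up to 2 in each comparison between LPS libraries, were named, and MMP1, PTGS2 and the SPRR genes were added after their values were seen. The steps were tested on simulated data that held counting error and a length trend, but no GC trend and no spread between cultures. The simulation therefore does not test the GC step or calls from single cultures. Scripts ran under Python 3.11.15 with statsmodels 0.14.6, scipy 1.17.1 and pandas 2.3.3. Reads carry no molecular identifiers, so counting intervals are a lower limit of the error.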

Additional observations from a re-analysis of the deposited data

Results flagged for a closer look

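MAFF was the one member whose counting intervals placed the libraries of the 2 peptides on opposite sides of LPS. Against LPS, its log2 fold change was -0.16 with the wild-type and 0.21 with the mutant peptide, a difference of 0.36 between the peptides. Both values share the LPS library, and the difference was not tested against replicates. Corrected for length and GC content, the value with the mutant peptide was 0.0074 and the difference between the peptides 0.15.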

How the results depend on the processing

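No paired analysis was possible because each condition had 1 library and the labels give no replicate numbers. The counts of AP-1 genes called were the same under TMM, total-count and upper-quartile scaling and with a pseudocount of 5. Total-count scaling put the all-gene median at -0.13 in LPS/Control. A 3-fold threshold left 3 members higher in LPS/Control and 3 in WT PDZ+LPS/Control, but 7 of 8 in mut PDZ+LPS/Control. With at least 64 normalized counts, both peptide libraries had 6 higher than Control. A 1.5-fold threshold gave 2 lower in WT PDZ+LPS/LPS, 5 higher in mut PDZ+LPS/LPS and 4 higher in mut PDZ+LPS/WT PDZ+LPS. These counts are uncorrected, and the share of all genes was not taken at the other thresholds or expression rules. After the correction the 5 stood at 0.64 (JUN), 0.56 (BATF3), 0.29 (FOSL1), 0.28 (JUND) and 0.24 (JUNB). The 4 stood at 1.45 (BATF3), 0.67 (FOSB), 0.28 (JUND) and 0.19 (JUNB). In mut PDZ+LPS/LPS, 0 members were higher after the length and GC correction, with at least 64 normalized counts or at 3-fold. Between the peptides 0 were higher with at least 64 normalized counts. In LPS/Control, the higher bZIP partners became 1 with at least 64 normalized counts, 4 at 1.5-fold and 1 at 3-fold, and the lower ones 2 without an expression rule and 0 with at least 64 normalized counts. At 1.5-fold, 4 upstream genes were higher and 1 target lower. For these lists, too, the shares of all genes were not taken at these settings. Of the 60 log2 fold changes of members, the correction moved 15 beyond their counting interval, total-count scaling 12 and upper-quartile scaling 2. The sign turned only for uncalled values near 0, those of FOS in mut PDZ+LPS/Control, JUND in WT PDZ+LPS/LPS and ATF3 in both comparisons of mut PDZ+LPS with another LPS library. Depth limits BATF3 and FOSB most.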
